A study of Mus musculus with 12 samples.

Results

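The CpG positions described here lie in an interval of 17 Mb on mouse chromosome 3 that holds the Tet2 gene (mm9 chr3:125000000-142000000) and an interval of 20 Mb on chromosome 8 (mm9 chr8:70000000-90000000). The members are all strand positions that at least 1 library lists there: 13280 on chromosome 3 and 31262 on chromosome 8, together 44542 of the 2615441 positions of the series. The intervals were chosen on the values described first, namely which groups list a position and the percent of reads with C or with another base, so those values are given without a test. No parental or germline DNA is among the libraries, so whether either interval was inherited was not tested.

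The DNA came from LSK cells (Lin- Sca1+ cKit+), the bone marrow fraction that holds blood stem and early progenitor cells, sorted from C57BL/6 mice aged 6 months with conditional mutations in blood-forming tissue. Leukemic double mutants and nonleukemic double mutants, both labelled Tet2(-/-) Nras(G12D), Tet2 knockout, labelled Tet2(-/-), and Nras G12D, labelled Nras(G12D), had 3 libraries each. Leukemia was read from the prefix L of the titles, and the leukemic libraries also carry the letters BMT in their descriptions, which the labels do not spell out. Wild-type libraries, which the design text names, were not analysed here, and the driver of the conditional alleles is not given in the sources used here. The labels do not say that replicates are separate animals, so the spread between them may be technical.

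Tet2 oxidises methylated cytosine, the first step of one route by which DNA loses methylation, and its loss in blood stem cells is common in myeloid disease. Nras G12D is an activated form of a small GTPase that signals to the MAP kinases. Reduced representation bisulfite sequencing reads the ends of fragments cut by MspI at CCGG. Bisulfite turns unmethylated C into T, so a T in the genome and an unmethylated C give the same read and cannot be told apart on that strand.

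The libraries summed to between 96300485 and 199736369 reads over listed positions. Every position listed has at least 10 reads, so an unlisted position had fewer than 10 and not necessarily none. Tet2 knockout replicate 2, the shallowest library, listed 23200 of the members, against 26761 to 29139 in the 11 others. Over the members listed in all 12 libraries, median coverage ran from 61 to 125 reads per library on chromosome 3 and from 64 to 138 on chromosome 8. All 12 libraries listed 4559 of the chromosome 3 positions and 13218 of the chromosome 8 positions. Of the 8721 others on chromosome 3, 4488 were listed by a single library, as were 8935 of the 18044 others on chromosome 8.

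A promoter from RefSeq (GRCm38.p6; 250 bases before to 50 after the gene start) was placed on mm9 by matching the spacing of its CpGs to that of listed positions, with no conversion of coordinates. On chromosome 3, 44 promoter sequences of 36 genes were placed, and on chromosome 8, 94 of 86 genes. Positions listed in some groups only fell inside the promoters of 6 genes on chromosome 3 and of 8 on chromosome 8. Among these genes Dnaja2, not shown, held 6 forward positions listed only in the nonleukemic double mutant and 1 missing only there. The 4 sequences that follow are from other genes of this set. In Ap1ar they hold positions of 2 opposite patterns, as Ube2d3 and Dnaja2 also did. Each is written 5′ to 3′ on the strand of its gene, and capitals mark the CpGs that some groups list and others do not. Camk2d, a calcium/calmodulin-dependent protein kinase, is at chr3:126299619-126299918 on the plus strand, and its capitals were listed only in the nonleukemic double mutant and Tet2 knockout. Ap1ar, a regulator of AP-1 vesicle traffic, is at chr3:127540392-127540691 on the minus strand, and 7 of its positions were listed only in the nonleukemic double mutant and Tet2 knockout and 1 only in the leukemic double mutant and Nras G12D. Gm30992, a gene model beside Manba, is at chr3:135148516-135148815 on the minus strand, and its capitals were listed only in the leukemic double mutant and Nras G12D. Orc6, a subunit of the origin recognition complex, is at chr8:87823281-87823580 on the plus strand, and its capitals were listed only in the nonleukemic double mutant.
Camk2d: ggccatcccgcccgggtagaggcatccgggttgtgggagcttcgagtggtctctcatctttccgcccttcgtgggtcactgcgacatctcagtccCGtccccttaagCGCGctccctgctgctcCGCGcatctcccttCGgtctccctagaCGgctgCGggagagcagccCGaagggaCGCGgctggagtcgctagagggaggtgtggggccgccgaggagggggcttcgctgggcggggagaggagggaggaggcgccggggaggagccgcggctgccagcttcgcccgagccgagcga
Ap1ar: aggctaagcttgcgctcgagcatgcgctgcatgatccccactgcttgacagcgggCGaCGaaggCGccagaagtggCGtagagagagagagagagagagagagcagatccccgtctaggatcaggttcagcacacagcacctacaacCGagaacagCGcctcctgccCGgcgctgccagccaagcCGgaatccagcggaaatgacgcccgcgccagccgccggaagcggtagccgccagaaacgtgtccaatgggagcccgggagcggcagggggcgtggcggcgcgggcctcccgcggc
Gm30992: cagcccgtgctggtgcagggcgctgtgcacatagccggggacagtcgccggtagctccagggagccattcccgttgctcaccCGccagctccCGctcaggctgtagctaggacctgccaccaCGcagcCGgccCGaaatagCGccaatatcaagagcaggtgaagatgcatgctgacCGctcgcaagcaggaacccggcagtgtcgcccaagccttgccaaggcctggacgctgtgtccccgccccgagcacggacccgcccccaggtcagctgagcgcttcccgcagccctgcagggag
Orc6: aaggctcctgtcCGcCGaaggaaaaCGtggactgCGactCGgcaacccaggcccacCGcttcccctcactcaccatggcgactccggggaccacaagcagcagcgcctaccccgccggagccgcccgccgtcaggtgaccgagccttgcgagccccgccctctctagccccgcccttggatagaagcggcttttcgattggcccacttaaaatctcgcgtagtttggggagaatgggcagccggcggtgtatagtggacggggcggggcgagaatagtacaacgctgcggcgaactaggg

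On chromosome 3, positions separated the nonleukemic double mutant and Tet2 knockout from the leukemic double mutant and Nras G12D. All 3 libraries of both listing groups had at least 20 reads and no library of the other groups listed the position at 83 positions for the nonleukemic double mutant and Tet2 knockout, and at 209 for the leukemic double mutant and Nras G12D. The 83 make up 0.625% of the interval's positions, against 0.0065% of all autosomal positions (166 in all). The 209 make up 1.57%, against 0.00846% of all autosomal positions (216 in all). Elsewhere on chromosome 3 there were 40 positions of the first pattern (0.038%) and 1 of the second (0.00095%). The 40 lay beside the interval, at 120 to 124 Mb and at 142 to 146 Mb, with 14 of them at 145 Mb. The first pattern thus did not stop at the borders of the interval. The leukemic libraries, although labelled Tet2(-/-), thus listed these positions as the Nras G12D libraries did, and the nonleukemic ones as the Tet2 knockout libraries did.

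The positions of the nonleukemic double mutant and Tet2 knockout ran from 125640592 to 139833607 in 34 clusters, where a cluster joins positions of a pattern no more than 400 bp apart. Those of the leukemic double mutant and Nras G12D ran from 126097453 to 141230237 in 61 clusters. The largest cluster of the first kind held 12 positions at 126299715 to 126299799, inside the Camk2d promoter. Its median coverage was 64.5, 58 and 100.5 reads in the nonleukemic double mutants and 84, 50 and 106 in the Tet2 knockouts, while no leukemic or Nras G12D library listed any of it. Every listing library had at least 50 reads at its median position, and median methylation there was 0% in each of them.

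The largest of the second kind held 37 positions at 129672499 to 129673502, the longest stretch of all. None of its positions was listed in the nonleukemic double mutants or Tet2 knockouts. Its median coverage was 115, 95 and 78 reads in the leukemic double mutants and 86, 64 and 54 in Nras G12D. By the listing rule the groups could not overlap, and median methylation was again 0% in each of the 6 listing libraries. A cluster of 26 positions at 135353998 to 135354339 had the same pattern, with 112.5, 75.5 and 53 reads in the leukemic double mutants and 59, 39 and 26 in Nras G12D. The 8 positions inside the Gm30992 promoter, at 135148638 to 135148732, had 158, 124 and 195.5 reads in the leukemic double mutants and 110, 129.5 and 106.5 in Nras G12D.

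The remaining large clusters lay near and far from placed promoters. Of the first pattern, 7 positions at 127540523 to 127540636 lay in the Ap1ar promoter, and 5 at 130433115 to 130433158 lay 0.119 kb from the first base of Rpl34, counted from the middle of the cluster, a ribosomal protein. In both, median methylation was 0% in all 6 listing libraries. The 5 positions at 134989088 to 134989167 were methylated instead, with medians of 100%, 98.2% and 98.6% in the nonleukemic double mutants and 96.3%, 100% and 97.8% in the Tet2 knockouts. The 6 positions at 138791281 to 138791551 were likewise mostly methylated, with library medians between 72.1% and 96.2%. Of the second pattern, 8 positions at 138738039 to 138738074 and 6 at 129604601 to 129604749 had medians under 1% in all 6 listing libraries.

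**Figure D1:**
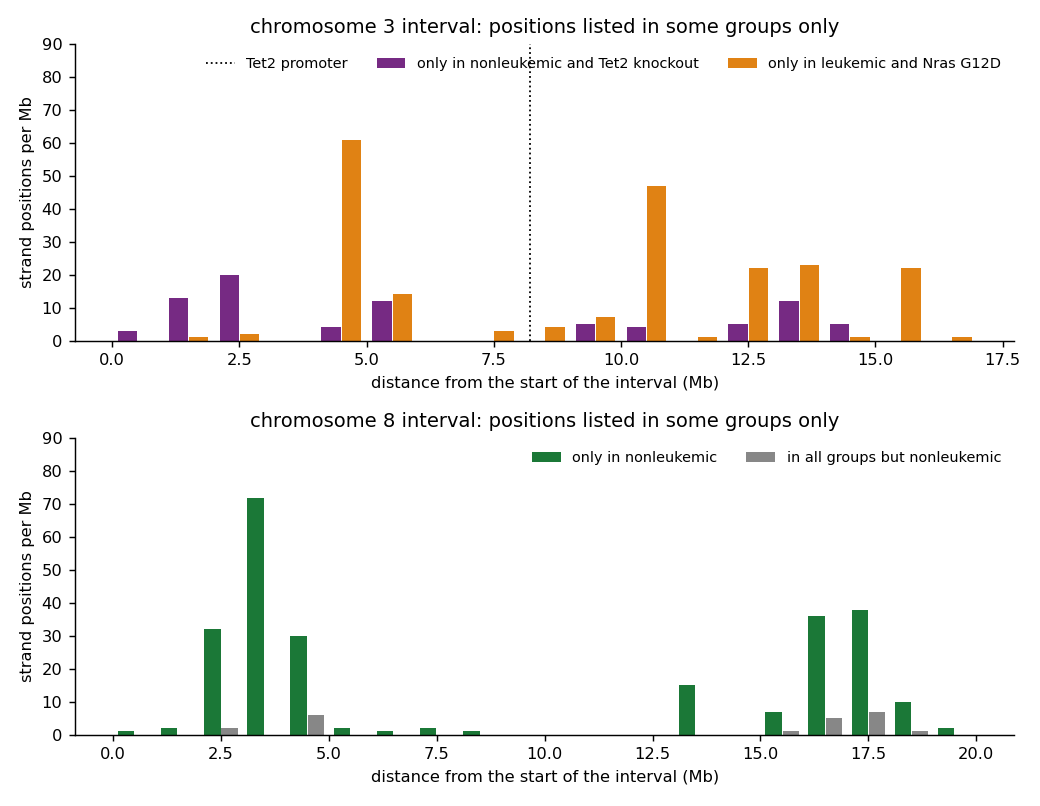
Strand positions listed in some groups only, per Mb, by distance from the start of each interval (top, chromosome 3; bottom, chromosome 8; dotted line, the placed Tet2 promoter). On chromosome 3 positions listed only in the nonleukemic double mutant and Tet2 knockout reached 20 in 1 Mb and those listed only in the leukemic double mutant and Nras G12D 61; on chromosome 8 those listed only in the nonleukemic double mutant reached 72.

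The listed positions were not evenly spread. Per Mb, the nonleukemic double mutant and Tet2 knockout pattern had 20 positions at 127 Mb, 13 at 126 Mb and 12 at 130 Mb. The leukemic double mutant and Nras G12D pattern had 61 at 129 Mb, 47 at 135 Mb and 23 at 138 Mb. Between 125 and 129 Mb the first pattern had 36 positions and the second 3, and between 129 and 142 Mb the first had 47 and the second 206. The cut at 129 Mb was set after the listing by library had been seen, so contrasts across it are descriptions only. Clusters of both patterns lay close together in places, with 6 of the 34 clusters of the first pattern within 1 kb of a cluster of the second.

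Positions listed by some groups included unmethylated and methylated sites. The median over the listing libraries was under 20% at 48.2% of the positions of the nonleukemic double mutant and Tet2 knockout pattern, and over 80% at 45.8%. For the leukemic double mutant and Nras G12D pattern these shares were 59.8% and 36.8%. Of the chromosome 3 positions listed in all 12 libraries, 67.5% were under 20% and 28.4% over 80%.

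On chromosome 8 the nonleukemic double mutant stood apart from the 3 other groups. It alone listed 251 positions, from 70695855 to 89611633 in 97 clusters, and it alone lacked 22, from 72149229 to 88079346. The 251 are 0.803% of the interval's positions, against 0.0148% of all autosomal positions (378 in all), and the 22 are 0.0704%, against 0.00149% (38 in all). Outside the interval chromosome 8 held 29 of the first kind (0.0239%), 25 of them between 90 and 91 Mb, and 2 of the second (0.00165%). Between 70 and 86 Mb the counts were 165 and 9, and between 86 and 90 Mb 86 and 13. The cut at 86 Mb was also set after the listing by library had been seen.

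The largest chromosome 8 cluster held 14 positions at 74153637 to 74153874, with medians of 46.5, 43 and 41 reads in the nonleukemic double mutants and no listing in the 9 other libraries. The 10 positions at 87823249 to 87823337, which run into the Orc6 promoter, had 71.5, 38.5 and 35 reads. Replicate 1 had the most reads in both, though narrowly in the first, and also in 2 more clusters between 86 and 88 Mb. These were 9 positions at 86710871 to 86710975, with 61, 30 and 43 reads, and 7 at 87518788 to 87518915, with 70, 30 and 24. In the first 3 of these 4 clusters median methylation was 0% in every nonleukemic library. In the cluster at 87518788 it was 98.7%, 93.3% and 100%. The 7 positions at 73153865 to 73153902 were again at 0% in all 3, with 40, 65 and 77 reads.

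The 22 positions missing from the nonleukemic double mutant were 22 separate clusters of 1 position. At 72149229, in the promoter of the zinc-finger gene Zfp868, no nonleukemic library listed the position. The Tet2 knockouts had 75, 41 and 88 reads there, the leukemic double mutants 157, 76 and 79, and Nras G12D 44, 88 and 102. At 72335552, where the other groups were methylated at 78.1% to 100%, their coverage was 32 to 103 reads. At 74000455 and 74052786 it was 38 to 208 and 72 to 174 reads, and at 74115450, 0.633 kb from the first base of Pgls, a pentose phosphate pathway enzyme, 37 to 91. In this pattern 77.3% of positions had a median under 20% and 22.7% over 80%, and in the positions of the nonleukemic double mutant alone 57.4% and 35.9%. Of the 97 nonleukemic clusters, 6 lay within 1 kb of a position of the opposite pattern.

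Single libraries split the positions further than the groups did, inside the intervals and beside them. Relative coverage was taken as reads at a position over the library's median at autosomal positions listed in all 12 libraries. Between 125 and 129 Mb of chromosome 3, 39 positions were absent from nonleukemic replicate 3 and Tet2 knockout replicates 1 and 3 only. Nonleukemic replicates 1 and 2 listed them at 0.440 and 0.468, Tet2 knockout replicate 2 at 0.656, the leukemic double mutants at 0.629, 0.883 and 0.677, and Nras G12D at 1.0, 0.880 and 1.37. Nonleukemic replicates 1 and 2 were thus below the 7 other listing libraries. The same listing occurred outside the interval, at 40 positions between 142 and 153 Mb. Nonleukemic replicates 1 and 2 listed those at 0.476 and 0.372, again the lowest. Between 125 and 129 Mb another 22 positions were absent from the same libraries and from Tet2 knockout replicate 2. Nonleukemic replicates 1 and 2 listed these at 0.464 and 0.649, the leukemic double mutants at 0.682, 0.846 and 0.734, and Nras G12D at 1.07, 1.15 and 0.873.

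In the same 4 Mb the positions listed only in the nonleukemic double mutant and Tet2 knockout had relative coverage of 0.464, 0.399 and 0.897 in the nonleukemic double mutants and 1.0, 0.703 and 0.809 in the Tet2 knockouts. Nonleukemic replicates 1 and 2 were again the lowest. From 129 to 142 Mb the same pattern gave 0.798, 0.723 and 0.920 in the nonleukemic double mutants and 0.778, 1.14 and 0.728 in the Tet2 knockouts, and replicates 1 and 2 no longer stood apart. There the positions of the opposite pattern gave 0.879, 0.872 and 0.729 in the leukemic double mutants and 0.867, 0.783 and 0.981 in Nras G12D.

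On chromosome 8 relative coverage was set out on each side of the cut at 86 Mb, which had been placed on the listing itself. From 70 to 86 Mb the positions that the nonleukemic double mutant alone listed had relative coverage of 0.50, 0.479 and 0.506, so that all 3 replicates were alike. From 86 to 90 Mb they had 0.744, 0.394 and 0.431, with replicate 1 highest. In that same stretch 125 positions were absent from nonleukemic replicate 1 only. Nonleukemic replicates 2 and 3 listed these at 0.649 and 0.563, below the 9 other libraries, which lay between 0.844 and 1.27. Outside the interval, between 90 and 91 Mb, 38 more positions were absent from nonleukemic replicate 1 only. Nonleukemic replicates 2 and 3 listed those at 0.356 and 0.362. The 25 positions that the nonleukemic double mutant alone listed between 90 and 91 Mb had 1.21, 0.489 and 0.402.

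**Figure D2:**
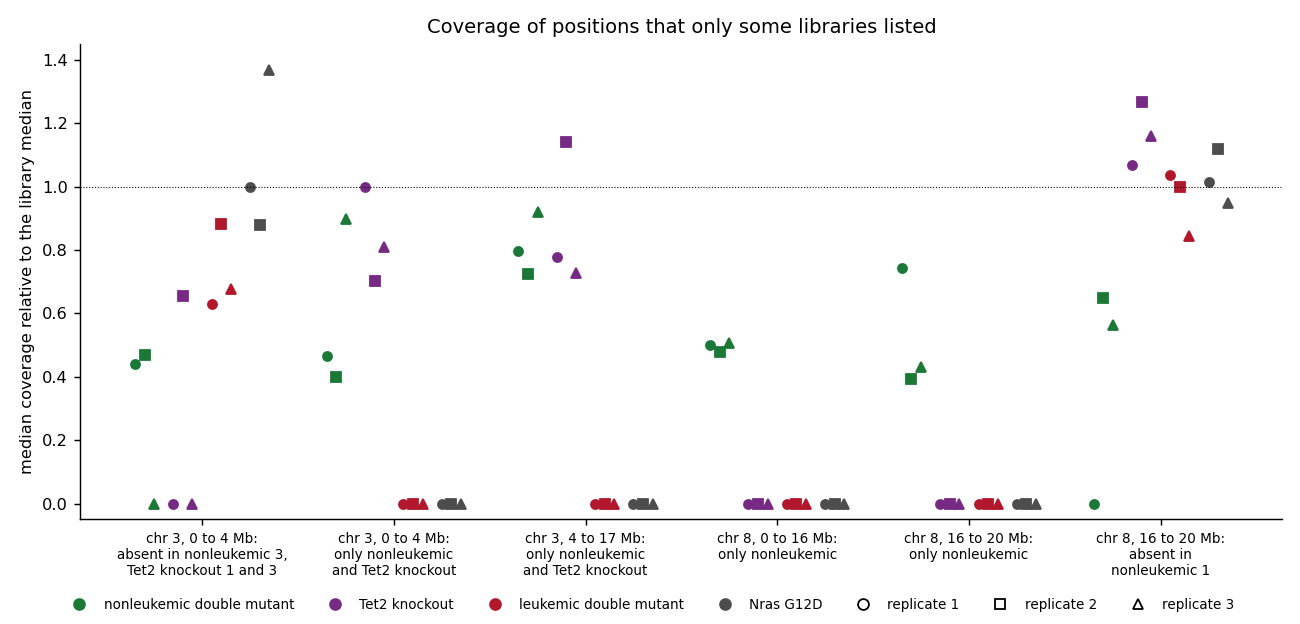
Median relative coverage per library for 6 sets of positions that some libraries did not list; 0 means not listed, and the dotted line is the library median. Nonleukemic replicates 1 and 2 sit at 0.399 to 0.468 in the 2 sets plotted for the first 4 Mb of the chromosome 3 interval, and all 3 nonleukemic replicates at 0.479 to 0.506 in the first 16 Mb of the chromosome 8 interval.

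The placed promoters allowed the reference letters to be read where runs of such positions began. Reads of MspI fragments start at a cut site, so the first position of a forward run and the last of a reverse run were taken. A run joined positions of 1 pattern and strand no more than 100 bp apart. Its end was not shown to be a cut site. Some ends were neither CCGG nor 1 letter from it, such as TCGC in Dnaja2, GCGC in Ube2d3 and TCGT in Eps15l1. In Camk2d the 6 forward and the 6 reverse positions both met at the CpG at 126299757, where the reference reads TCGG. In Gm30992 the 4 forward and 4 reverse positions met at 135148686, where it reads CCGG, the MspI site. In Orc6 the 5 forward and 5 reverse positions met at 87823296, where it reads CCGA. The Ap1ar runs of the nonleukemic double mutant and Tet2 knockout began at CCGG and TCGC, and the single position of the opposite pattern at CCGG.

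Counted over all runs in placed promoters, the reference held CCGG at 1 of 5 runs listed only in the nonleukemic double mutant and Tet2 knockout. Another 2 of these were 1 letter away. Of the 5 runs listed only in the leukemic double mutant and Nras G12D, 4 held CCGG and 1 was 1 letter away. On chromosome 8 the reference held CCGG at 0 of 5 runs listed only in the nonleukemic double mutant, 4 of which were 1 letter away. Of the 4 runs missing only there, 1 held CCGG and 2 were 1 letter away. Forward and reverse runs that met at the same CpG, as in Camk2d, Gm30992 and Orc6, were counted separately. Both strands of CCGG read alike, and 52.8% of the 32851 RefSeq promoters hold at least 1, as do 137 of the 138 placed here. These are letters of the reference, since the deposited tables give no read sequences, and the rule for runs was written after the data had been seen.

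Some positions were listed everywhere but switched between near 0% and near 100%. A switch was a position with every library of some groups at 10% or less and every library of the others at 70% or more. All autosomes held 12, and 8 of them lay in the chromosome 3 interval. All 8 were low in the nonleukemic double mutant and Tet2 knockout and high in the leukemic double mutant and Nras G12D. For 7 of the 8, no CpG within 1 kb differed by 25 points or more in the same direction, which is 0.154% of the interval's positions listed in all 12 libraries, against 0.0007% over all autosomes. The eighth, 0.0219% of the interval and 0.0001% of the autosomes, had no measured neighbour. The 4 switches outside the interval, 0.0004% of the autosomes, were low in the leukemic double mutant, and each was shared by neighbours. The chromosome 8 interval held none.

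The switch nearest to Tet2 lay at 133611403 on the reverse strand, between the placed promoters of Tet2 and Cxxc4. It read 1.64%, 0% and 0% C in the nonleukemic double mutants and 0% in each Tet2 knockout, against 96.2%, 98.6% and 100% in the leukemic double mutants and 99.0%, 93.5% and 100% in Nras G12D. At 130530765, on the reverse strand, all nonleukemic and Tet2 knockout libraries were at 0%, against 100% in each leukemic double mutant and 100%, 94.0% and 100% in Nras G12D. Both positions left a gap of over 90 points between the lowest high library and the highest low one.

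The neighbouring positions 137777111 and 137785715, both on the forward strand, lay 29.3 and 20.7 kb from the first base of Mttp, the microsomal triglyceride transfer protein. The first read 0.658%, 0.610% and 1.03% in the nonleukemic double mutants and 0.833%, 0% and 0% in the Tet2 knockouts, against 86.7%, 98.9% and 99.4% in the leukemic double mutants and 91.4%, 99.3% and 98.1% in Nras G12D. The second read 0%, 0% and 1.14% in the nonleukemic double mutants and 0% in each Tet2 knockout, against 98.3%, 100% and 100% in the leukemic double mutants and 92.9%, 84.5% and 100% in Nras G12D. At 85 to 175 reads per library, 137777111 was the most deeply read of the 8.

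The least extreme switch, at 135234693 on the forward strand, read 4.0%, 0% and 0% in the nonleukemic double mutants and 9.09%, 0% and 2.22% in the Tet2 knockouts, against 100%, 74.2% and 88.9% in the leukemic double mutants and 78.3%, 98.9% and 100% in Nras G12D. Its coverage went down to 11 reads. At 129615138, on the reverse strand, the values were 0%, 8.11% and 1.67% in the nonleukemic double mutants and 0%, 5.88% and 3.85% in the Tet2 knockouts, against 100% in each leukemic double mutant and 95.7%, 100% and 91.7% in Nras G12D. By the rule for a switch, no library could cross between the low and the high set.

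At 135005392, on the reverse strand, the nonleukemic double mutants read 0%, 0% and 2.44% and each Tet2 knockout 0%, against 100%, 87.5% and 100% in the leukemic double mutants and 93.9%, 100% and 100% in Nras G12D. At 139484859, on the forward strand and with no neighbour, they were 4.05%, 2.99% and 2.78% in the nonleukemic double mutants and 1.59%, 2.50% and 0% in the Tet2 knockouts, against 100% in each leukemic double mutant and 98.6%, 96.7% and 100% in Nras G12D. No sequence is printed at the switches, which lie outside the placed promoters.

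The 7 switches with neighbours had 31 measured CpGs within 1 kb, at 2 to 959 bp. Nonleukemic double mutant and Tet2 knockout minus leukemic double mutant and Nras G12D ran from -8.65 to 24.8 points over these neighbours, with a median of -2.61, and 30 of the 31 were within 10 points. The exception, beside 135005392, went the opposite way to its switch. The opposite strand of the same CpG was unlisted in every library for 7 of the 8 switches, as it was for 62.2% of the interval's positions listed in all 12 libraries, so the strands of a switch could not be compared.

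**Figure D3:**
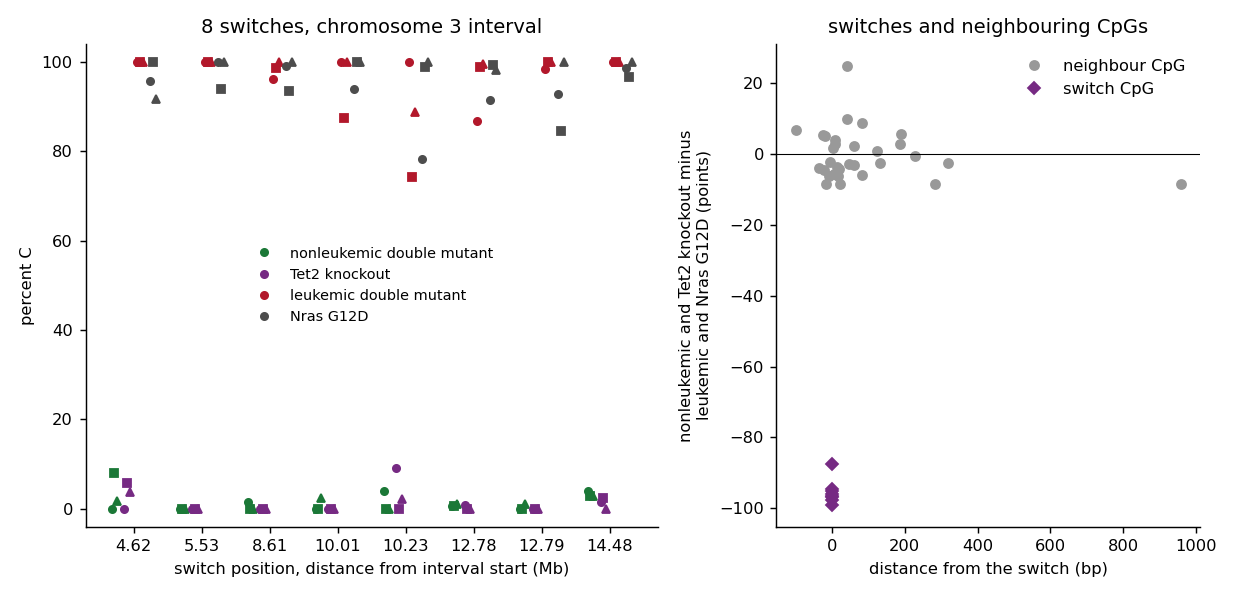
Left, percent C in each of the 12 libraries at the 8 switches of the chromosome 3 interval (circle, square and triangle are replicates 1, 2 and 3); right, nonleukemic double mutant and Tet2 knockout minus leukemic double mutant and Nras G12D in percentage points at the switch CpGs and at the 31 neighbouring CpGs, by distance in bp. The low libraries stay at 9.09% or less and the high ones at 74.2% or more, while the neighbours lie between -8.65 and 24.8 points.

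A looser rule, written after the data had been seen, took in intermediate levels and gives the partial switches. The comparison libraries had to be all at 70% or more, or all at 20% or less, and at least 2 of the remaining libraries had to lie 25 points or more beyond the nearest of them. On chromosome 3, with the nonleukemic double mutant and Tet2 knockout set against the leukemic double mutant and Nras G12D, 16 positions were lower, the 8 switches among them, and 4 were higher. Lower positions were 0.351% of the interval's positions listed everywhere, against 0.0329% over all autosomes, and higher ones 0.0877% against 0.0338%. Outside the interval on chromosome 3 the shares were 0.0431% and 0.0304%. On chromosome 8, with the nonleukemic double mutant set against the 9 other libraries, 12 were lower and 1 higher, which is 0.0908% against 0.003% and 0.00757% against 0.0024%. Outside the interval on chromosome 8 they were 0.00436% lower and 0.0153% higher.

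Several chromosome 3 positions between 127 and 128 Mb split the replicates. At 127509497, on the reverse strand, the nonleukemic double mutants read 38.8%, 44.7% and 0.820% and the Tet2 knockouts 1.47%, 0% and 1.64%, against 100%, 100% and 99.1% in the leukemic double mutants and 91.3%, 97.5% and 95.0% in Nras G12D. At 127414231, on the forward strand, they read 59.1%, 39.3% and 4.0% in the nonleukemic double mutants and 4.55%, 63.6% and 0% in the Tet2 knockouts, against 90.9% or more in all 6 other libraries. Nonleukemic replicates 1 and 2, and at the second position Tet2 knockout replicate 2, were intermediate, and the remaining 3 or 4 libraries near 0%. These are the libraries whose coverage or listing differed in the same 4 Mb. Other lower positions there split differently. At 126901079 nonleukemic replicate 3 and Tet2 knockout replicate 3 were lowest, at 33.3% and 36.8%. At 128131327 Tet2 knockout replicates 2 and 3 were lowest, at 37.5% and 52.9%. Outside the interval lower positions also split in several ways. On its 2 sides 123375097, 144337712 and 145065327 split as 127414231 did, and 124778847 did so less sharply. The nonleukemic double mutants read 40.8%, 62.2% and 0% at 145065327 and the Tet2 knockouts 0%, 66.7% and 0%.

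The pair 127643119 and 127643173 repeated that split. At 127643119 the nonleukemic double mutants read 55.5%, 53.8% and 0.775% and the Tet2 knockouts 0%, 71.8% and 0%, and at 127643173 52.5%, 44.4% and 1.23% and 0%, 27.3% and 0%. The leukemic double mutants and Nras G12D lay at 89.9% or more at the first and 76.0% or more at the second. Lying within 1 kb, these 2 counted each other as changed neighbours, and no other CpG of the 9 within 1 kb of each passed the neighbour rule.

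**Figure D4:**
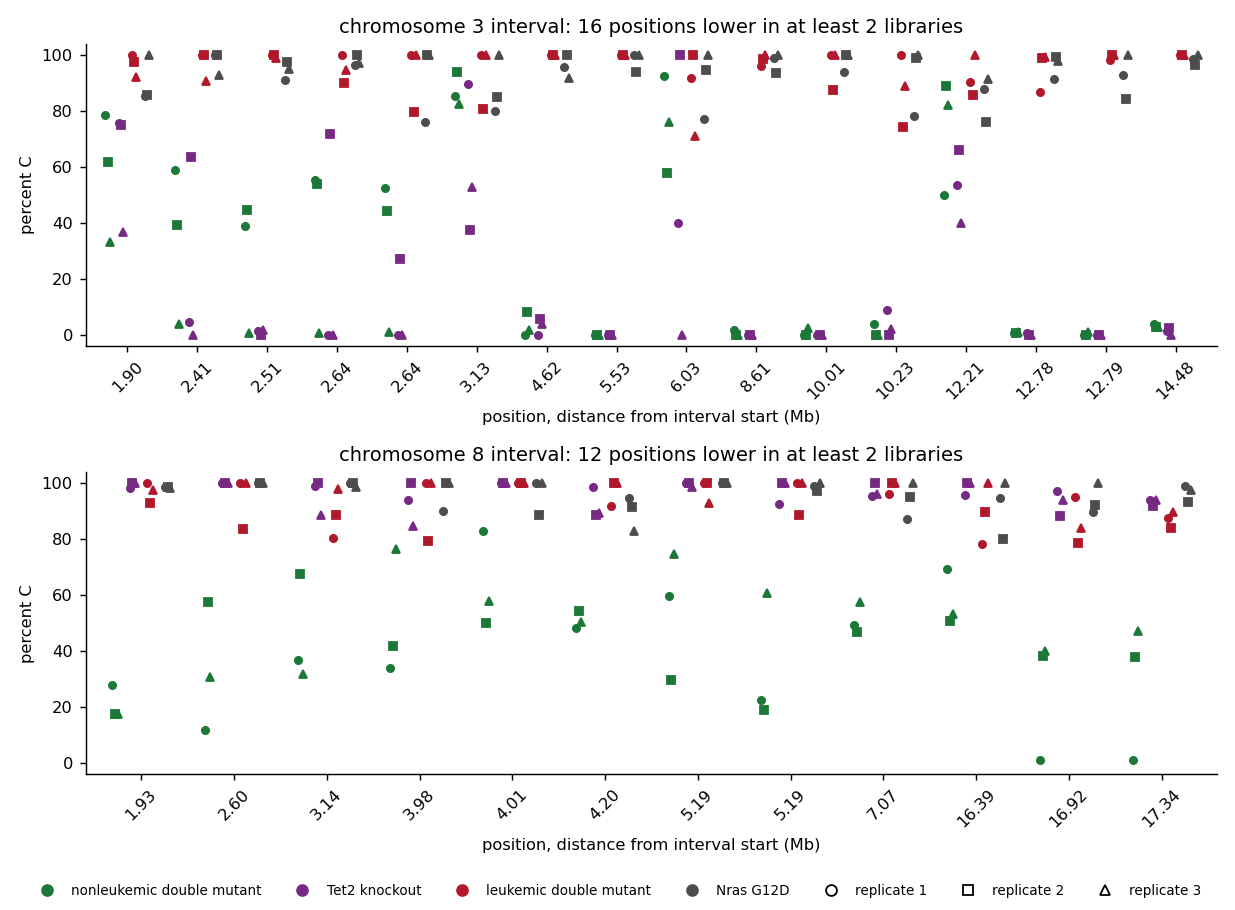
Percent C in each library at the positions lower in at least 2 libraries of the groups set against the rest, by distance from the start of the chromosome 3 interval (top, 16 positions) and of the chromosome 8 interval (bottom, 12 positions). On chromosome 8 the nonleukemic double mutant alone is low, at intermediate levels in most positions and at 0.935% and 0.943% in replicate 1 at the last 2.

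On chromosome 8 the nonleukemic replicates were close to each other at some of these positions and spread at others. At 74204429, on the forward strand, the nonleukemic double mutants read 48.1%, 54.4% and 50.5%, against 82.96% to 100% in the 9 other libraries. At 77071049, on the forward strand, they read 49.5%, 46.9% and 57.5%, against 87.1% to 100%. At 74128917 the direction was opposite, with 40%, 55.9% and 37.5%, against 0% to 1.43%. All 3 replicates were near the middle of the scale at these 3 positions. The groups did not overlap, which the rule for a partial switch required of at least 2 replicates. On the forward strand 74128917 was thus higher in the nonleukemic double mutant, but its opposite strand did not differ that way. The 10 libraries that listed the opposite strand read 85.4% to 100%, the nonleukemic double mutants 100%, 86.1% and 90.9%.

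At 72601384, on the forward strand, the nonleukemic double mutants read 11.7%, 57.7% and 30.9%, against 83.8% to 100% in the 9 other libraries. The lower positions 73144801, 73979276 and 74006745 also spread, between 31.9% and 82.98% over the 3 replicates, so that the replicate nearest the 9 other libraries differed from one position to the next.

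In the last 4 Mb replicate 1 was apart from the others at 2 of 3 lower positions. At 86918333, on the reverse strand, the nonleukemic double mutants read 0.935%, 38.4% and 40%, against 78.6% to 100% in the 9 other libraries. At 87340346, on the forward strand, they read 0.943%, 37.8% and 47.2%, against 83.95% to 99.1%. At 86394099, on the forward strand, it was the highest of the 3 instead, at 69.4%, 50.9% and 53.3%, against 78.4% to 100%.

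Of the 16 lower positions on chromosome 3, 12 had measured neighbours and none of them changed in the same direction, as had 11 of the 12 on chromosome 8. The chromosome 8 position shared with a neighbour was 71929003, at 27.8%, 17.5% and 17.6% in the nonleukemic double mutants, against 93.1% to 100% in the 9 other libraries. At the CpG 75194913 both strands were lower, at 59.6%, 29.8% and 74.6% on the forward strand and 22.4%, 18.9% and 60.9% on the reverse strand, against 88.5% to 100%. At 0.892 kb from the first base of Cxxc4, a CpG-binding protein that lowers Tet2 protein, position 133898567 read 100% in Tet2 knockout replicate 2, 47.7% in replicate 3 and 2.74% in replicate 1. The nonleukemic double mutants read 0%, 0% and 5.71% there and the 6 other libraries 0%. The opposite strand of the same CpG read 0% in all 12 libraries, and none of the 20 neighbours within 1 kb passed the neighbour rule.

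Bases other than C and T could not mark further sites in these tables. No position of either interval reached 10% other bases in any library (highest 9.59% on chromosome 3 and 9.93% on chromosome 8), nor did any over all autosomes. A rule of 50% or more in some groups could thus not be met, and its count of 0 says nothing of such sites.

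The Tet2 promoter itself did not differ in listing. It was placed at chr3:133207305-133207604 on the minus strand, with 46 of its 57 CpGs listed. The sequence shows in capitals the 32 CpGs that all 12 libraries listed.
Tet2: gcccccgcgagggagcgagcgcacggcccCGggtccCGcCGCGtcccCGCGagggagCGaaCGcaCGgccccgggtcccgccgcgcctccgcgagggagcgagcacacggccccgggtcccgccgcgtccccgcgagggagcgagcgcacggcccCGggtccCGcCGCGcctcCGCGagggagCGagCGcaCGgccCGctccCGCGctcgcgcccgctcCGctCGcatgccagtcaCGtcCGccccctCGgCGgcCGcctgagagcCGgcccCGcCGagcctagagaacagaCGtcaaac
Mean methylation over the 33 strand positions listed in all libraries was 0.00802% ± 0.0139 in the nonleukemic double mutants, 0.0574% ± 0.0717 in the Tet2 knockouts, 0.0131% ± 0.0228 in the leukemic double mutants and 0.0880% ± 0.0558 in Nras G12D (SD, n = 3 each). No library exceeded 0.138%, and no position in the window was listed in some groups only. A CpG outside the window says nothing of the deleted part of the gene, which these tables do not show.

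Promoters elsewhere in the intervals were also low in every group. Among Tet2 and its 5 RefSeq neighbours on each side, 6 of 11 promoters were placed: Npnt, an extracellular matrix protein, Gstcd, the Integrator subunit Ints12, the mitochondrial pyrophosphatase Ppa2, Tet2 and Cxxc4. Their library means lay between 0% and 1.41%. Of the gene list for chromosome 3, 5 of 9 were placed, Tet2, Cxxc4, the histone variant H2afz, the cap-binding factor Eif4e and the lysosomal enzyme Manba, at 0% to 2.74%. Of the list for chromosome 8, 3 of 13 were placed, the transcription factor Klf2, the peroxidase Prdx2 and the signalling adaptor Gab1, at 0% to 5.62%. None of these promoters held, within the 300 bases placed, a position listed in some groups only. Clusters listed only in the leukemic double mutant and Nras G12D lay close to 2 of them. The middle of the cluster of 8 positions at 135148638 was 0.11 kb from the first base of Manba. A cluster of 5 at 137527151 to 137527198 ended just before the H2afz window, which starts at 137527201.

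Over all placed promoters with at least 5 positions listed everywhere, 41 of 44 on chromosome 3 and 78 of 88 on chromosome 8 stayed under 5% in all 12 libraries. The highest on chromosome 3 was Stpg2, whose highest library reached 15.7%. On chromosome 8, Palm3, a paralemmin, stood out at 51.3% ± 3.08 in the nonleukemic double mutants, 56.8% ± 7.44 in the Tet2 knockouts, 51.9% ± 13.2 in the leukemic double mutants and 57.3% ± 2.76 in Nras G12D (SD, n = 3 each). Its leukemic replicates, at 65.9%, 39.7% and 49.9%, overlapped every other group.

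The next question was how methylation differed between the leukemic and the nonleukemic double mutant over tiles of each interval. The switches and partial switches, whose values entered the choice of the intervals, were kept in these tiles. Counts without them are given further below. Tiles of 1 kb with at least 3 CpGs were tested with a quasi-binomial model over all 12 libraries, adjusted over all 81077 autosomal tiles by the Benjamini-Hochberg method, and called at an adjusted p under 0.05 and 10 points. On chromosome 3, 11 of 359 tiles were lower (3.06%, against 3.87% of all tiles) and 4 higher (1.11%, against 0.111%). On chromosome 8, 22 of 918 were lower (2.4%) and 2 higher (0.218%). Lower tiles were thus called at a smaller share in both intervals than over all tiles, and the difference in share was not tested.

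The calls moved with single libraries. Leaving out any nonleukemic replicate left 1 call on chromosome 3 and 3 or 4 on chromosome 8, leaving out leukemic replicate 1 gave 25 and 41, and leaving out leukemic replicate 3 gave 25 and 44. With limma on log2 ratios neither interval had a call.

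All 4 higher tiles on chromosome 3 held a switch or a partial switch, and none of the 11 lower ones did. They were the tiles at 127643000, 133611000, 137777000 and 137785000. Their leukemic minus nonleukemic differences of 17.5, 17.5, 21.6 and 32.7 points became 1.48, -8.70, 2.23 and -1.79 points without the switching CpGs. On chromosome 8 the higher tile at 75194000 held the CpG described above, and its difference of 10.8 points became -1.15. Without switches and partial switches, chromosome 3 had 11 lower and 0 higher tiles of 357, and chromosome 8 had 22 lower and 1 higher of 918. At an unadjusted p under 0.05, 76 of 359 tiles and 169 of 918 tiles had passed with those CpGs included. The share of all autosomal tiles at that level was not counted, so these numbers say nothing particular to the intervals.

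**Figure D5:**
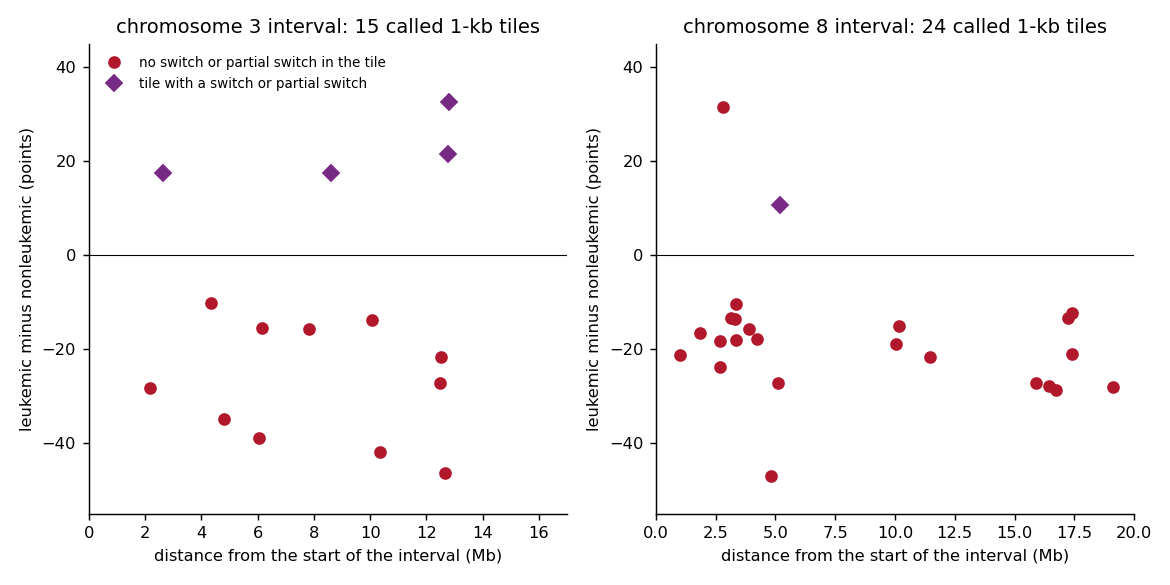
Leukemic minus nonleukemic double mutant, in percentage points, for the 15 called tiles of the chromosome 3 interval (left) and the 24 of the chromosome 8 interval (right), by distance from the interval start. Every tile with a switch or partial switch is above 0, and 1 tile above 0, on chromosome 8, holds none.

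The largest fall on chromosome 3 was at 137645000 to 137645999, with 6 CpGs. The leukemic double mutants read 69.9%, 31.6% and 42.7%, against 94.6%, 94.2% and 94.2% in the nonleukemic double mutants, a difference of -46.2 points (adjusted p 0.00909, quasi-binomial F test with Benjamini-Hochberg adjustment). Tet2 knockouts were at 97.5% ± 3.24 and Nras G12D at 89.6% ± 3.76 (SD, n = 3 each). No leukemic library reached any of the 9 others.

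Smaller falls lay at 131146000, 6.69 kb from the first base of the sphingomyelin synthase Sgms2, and at 129361000. The leukemic double mutants were at 79.8% ± 9.52 and the nonleukemic at 95.3% ± 2.42 in the first, and at 76.9% ± 4.68 and 87.0% ± 2.16 in the second (SD, n = 3 each). With the same test the adjusted p was 0.0166 for the first and 0.0393 for the second. By the naming rule, replicates could not overlap in either.

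On chromosome 8 the tile at 86726000 had 10.9%, 7.12% and 1.92% in the leukemic double mutants, against 20.9%, 52.1% and 32.8% in the nonleukemic ones, the lowest methylation of the named tiles. At 72689000, with 13 CpGs, the leukemic double mutants were at 45.7% ± 11.5 and the nonleukemic at 69.5% ± 8.09 (SD, n = 3 each). The Tet2 knockouts, at 55.1% ± 3.36, and Nras G12D, at 49.5% ± 2.59, lay between them. At 73344000, with 16 CpGs, it was 70.4% ± 3.86 in the leukemic double mutants, against 88.4% ± 2.04 in the nonleukemic (SD, n = 3 each), with Tet2 knockout at 86.4% and Nras G12D at 87.3%.

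Tiles at 87385000 and 72695000 were lower by 21.0 and 18.2 points, at 72.8% ± 7.74 against 93.8% ± 1.62 and at 80.3% ± 6.71 against 98.5% ± 1.002 in leukemic against nonleukemic double mutants (SD, n = 3 each). The higher tile without a switch, at 72803000 with 4 CpGs and chosen for mention after its values were seen, read 52.5%, 47.4% and 73.7% in the leukemic double mutants, against 33.5%, 22.0% and 23.3% in the nonleukemic. Tet2 knockout was at 26.7% ± 6.97 and Nras G12D at 29.2% ± 2.90 there (SD, n = 3 each), so the leukemic libraries were above all 9 others.

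The same leukemic libraries were set against the single mutants, so these contrasts share libraries. Leukemic double mutant minus Tet2 knockout gave 16 lower and 4 higher tiles on chromosome 3 (4.46% and 1.11%, against 7.52% and 0.158% of all tiles) and 45 lower and 1 higher on chromosome 8 (4.9% and 0.109%). All 4 higher tiles on chromosome 3 held a switch or partial switch, on which the interval was chosen, and without those CpGs 15 lower and 0 higher were called there, and 45 and 1 on chromosome 8. Leukemic double mutant minus Nras G12D gave 4 lower and 0 higher on chromosome 3 (1.11% and 0.0%, against 1.98% and 0.0937%) and 11 lower and 1 higher on chromosome 8 (1.2% and 0.109%). These counts also moved with the method. limma called 7 tiles on chromosome 3 and 10 on chromosome 8 for leukemic double mutant minus Tet2 knockout and 0 and 0 for leukemic double mutant minus Nras G12D, and fits on the 6 libraries of a contrast called 0 for both. Leaving out 1 library gave 12 to 36 and 24 to 82 for leukemic double mutant minus Tet2 knockout, with 12 on chromosome 3 without Tet2 knockout replicate 2 or 3, 24 to 30 on chromosome 8 without 1 Tet2 knockout replicate, 36 on chromosome 3 without leukemic replicate 3 and 82 on chromosome 8 without leukemic replicate 1. For leukemic double mutant minus Nras G12D it gave 0 to 11 and 1 to 39, with 0 to 2 without 1 Nras G12D replicate, 1 on chromosome 3 without 1 nonleukemic replicate and 8 to 39 without leukemic replicate 1 or 3. Among nonleukemic double mutant, Tet2 knockout and Nras G12D the quasi-binomial model and limma called 0 tiles in either interval. At an unadjusted p under 0.05, nonleukemic double mutant minus Tet2 knockout had 6 tiles of 359 on chromosome 3 and 59 of 918 on chromosome 8. Nonleukemic double mutant minus Nras G12D had 18 and 49, and Tet2 knockout minus Nras G12D 26 and 56. Without the share of all autosomal tiles at that level, which was not counted, these numbers cannot be read as differences of the intervals.

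Averaged over each interval, methylation was lowest in the leukemic double mutant. Over the 4228 chromosome 3 CpGs more than 1 kb from a switch, means were 28.5% ± 0.650 in the leukemic and 30.5% ± 0.143 in the nonleukemic double mutants, 30.7% ± 0.443 in Tet2 knockout and 29.99% ± 0.225 in Nras G12D (SD, n = 3 each). Over the 12045 chromosome 8 CpGs they were 23.9% ± 0.622 in the leukemic and 25.4% ± 0.0390 in the nonleukemic double mutants, 25.8% ± 0.211 in Tet2 knockout and 25.2% ± 0.158 in Nras G12D (SD, n = 3 each). Leukemic minus nonleukemic was -1.97 points on chromosome 3 and -1.46 on chromosome 8, against -2.39 over the rest of the autosomes, and replicates did not overlap. Partial switches, whose values entered the choice of the intervals, were kept in these means. Chromosome 8 had no switch, so no CpG was left out there for lying near a switch.

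A two-sided exact permutation test gave p = 0.1 for leukemic minus nonleukemic in each interval, the smallest p that 3 libraries against 3 allow, and 0.12 and 0.10 after adjustment over the 6 pairs of groups of an interval. On chromosome 3, where Tet2 knockout and the nonleukemic double mutant share their listing and switches, the nonleukemic double mutant minus Tet2 knockout difference was -0.26 points (exact permutation p = 0.5) and the replicates overlapped. The nonleukemic double mutant minus Nras G12D difference, between groups with opposite listing, was 0.49 points (exact permutation p = 0.1) with no overlap, and 0.43 points over the rest of the autosomes.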

How the data were processed

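Coverage is a count of reads per strand position and the C and T columns are a percent of those reads, per the file headers; the deposited tables list positions with at least 10 reads. The submitters' processing notes name Bismark and mm9 (NCBIM37), without a version for Bismark. Per the labels' protocols, MspI fragments of 150 to 400 bp were read for 50 bp from a single end. PCR reads carry no molecular identifiers, so read numbers cover counting error only. Methylated and unmethylated reads were rounded from coverage and percent, and strands of a CpG were added for tiles.

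Tiles of 1 kb were fitted with a quasi-binomial model whose dispersion was moderated as in limma, over 4 groups of 3 libraries, and tested on simulated data. Computation used R 4.3.3 with limma 3.58.1, and Python 3.11.15 with SciPy 1.17.1, NumPy 2.4.6 and pandas 2.3.3. The members, lists and tests were chosen with earlier results of these data known. Named positions follow a rule: the first and last of a pattern, its 5 clusters with most positions, every switch where 12 or fewer, and the 5 called tiles with the largest fall and rise with at least 5 CpGs and no overlap of replicates. The rules for partial switches and for runs of positions were written after the data had been seen, and the partial switches named were picked from their values. The patterns by single library and the cuts at 129 Mb and 86 Mb were also set after the data had been seen. Promoters needed at least 8 matching CpGs, 3 more than the next best match. Alternatives were other read minimums, thresholds, distances and tile lengths, limma, a fit on 6 libraries, a replicate block and leaving out each library.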

Additional observations from a re-analysis of the deposited data

How the results depend on the processing

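With at least 40 reads the positions listed by some groups fell to 40 (nonleukemic double mutant and Tet2 knockout), 100 (leukemic double mutant and Nras G12D) and 77 (nonleukemic double mutant alone), and leaving out 1 library gave 83 to 111, 209 to 228 and 252 to 297. The 7 single-position switches on chromosome 3 were 3 at 20 or more reads per library and 7 to 8 without 1 library, while chromosome 8 had 0 throughout. The 15 chromosome 3 and 24 chromosome 8 tiles became 9 and 11 at 20 points, 0 and 1 in a fit on 6 libraries, 0 and 0 with limma, and 1 to 25 and 3 to 44 without 1 library. Of the 11 tiles named by rule, limma and the 6-library fit each lost 11, and leaving out any nonleukemic replicate lost 10. The chromosome 8 tile at 75194000 turned to -1.15 points without switches and partial switches. The chromosome 3 mean difference of -1.97 points was -3.19 weighted by coverage, and the mean differences ranged from -2.27 to -1.62 on chromosome 3 and from -1.78 to -1.16 on chromosome 8 without 1 library; the causes were not tested. With a replicate block the tiles numbered 12 and 18, but equal replicate numbers did not pair the libraries (correlations of deviations from -0.0122 to 0.0216). Positions under 10 reads cannot be told from absent ones, which limits all listing counts, and most of all in Tet2 knockout replicate 2.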
